A study of Canis lupus familiaris with 20 samples.

Results

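FCGR1A, FCER1G and TYROBP were followed in canine mammary cancer cells and canine macrophages that had been grown together, sorted apart and compared with the same cells grown alone. The genes were found by matching the RefSeq accession of each probe to a gene symbol, which gave 4 probes for these 3 genes among 43603 distinct probes, of which 1648 could be given a symbol. FCGR1A and TYROBP had 1 probe each, and FCER1G had 2 probes, called probe 1 (the brighter) and probe 2.

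FCGR1A encodes CD64, the high-affinity receptor for the Fc part of IgG, which is carried by monocytes and macrophages. FCER1G encodes the common gamma chain of Fc receptors, the partner through which CD64 reaches the cell surface and signals. TYROBP encodes DAP12, the adaptor of other myeloid receptors such as TREM2. Both adaptors carry an immunoreceptor tyrosine-based activation motif (ITAM), a short stretch whose tyrosines are phosphorylated by Src-family kinases and then bind the kinase SYK.

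Gene expression was measured on 20 two-colour arrays, 10 for each population. The cancer lines were CMT-U27 (a simple carcinoma), CMT-U309 (a spindle-cell tumour), P114 (an anaplastic cancer), CMT-W1 and CMT-W2 (both adenocarcinomas), and each was cultured with macrophages for at least 72 h. The macrophages came from monocytes of dog blood that were sorted as CD64-positive before culture, so all macrophage samples had been selected on the protein of FCGR1A, and the study describes them as partially differentiated after culture with no growth factor stimulation. The cancer cells were stained with a fluorescent dye (CMTMR), and the co-cultured cells were separated by flow cytometry. Every array carried RNA of a sorted population in one dye and of its mono-culture in the other, and every comparison was hybridised a second time with the dyes exchanged. By the methods, co-cultured cells were harvested with trypsin and sorted, while mono-cultures were washed and scraped. In every ratio, co-culture and this difference in handling cannot be told apart. The sample labels call the arrays of such a pair biological replicates, while the methods describe a dye-swap. A pair therefore counted as 1 replicate, with n = 5 co-cultures for each population, and the sources used here do not say how many macrophage mono-cultures were grown. The p-values of the ratios and of the sorted levels then measure the spread between these co-cultures. Those of the mono-culture levels measure the spread between mono-culture channels, and the macrophage channels may repeat the same culture. In that case any deviation of this culture is common to all macrophage ratios and is not part of their spread. The p-values of the macrophage ratios, and of their difference from the cancer cell ratios, may then be too small.

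Spots well above background in the channel of the sorted cells made up 51.0% to 96.3% of each cancer cell array and 54.5% to 74.7% of each macrophage array. The number of arrays limits the precision. Of a list of 15 macrophage markers, 5 had a probe (CD163, CD209, ADGRE1, C5AR1 and CD86), and all of them were well above background in the macrophage mono-culture channel of all 10 arrays. On the 10 arrays of the cancer cells, these markers were well above background in the mono-culture channel on 3 (CD209), 4 (CD163, ADGRE1 and C5AR1) and 8 (CD86) arrays. Of 10 epithelial markers only MUC1 had a probe, and it was well above background on 7 of the 10 cancer mono-culture channels and on 9 of the 10 macrophage ones.

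The CMT-U27 co-culture stood apart in its sorted populations. The summed level of the 5 macrophage markers, given as a share of its mean in the macrophage mono-cultures, was 50.6% in the cells labelled cancer cells and 7.93% in those labelled macrophages. In CMT-W2 these shares were 8.82% and 2.38%, and in CMT-U309, P114 and CMT-W1 the sorted macrophages had the higher share. Over all lines the share was 0.0989% to 0.761% in mono-cultured cancer cells, 1.45% to 50.6% in sorted cancer cells and 2.38% to 20.3% in sorted macrophages. The sources used here do not settle whether these CMT-U27 RNAs carry the right labels, so the values of this co-culture are those of RNA labelled cancer cells or macrophages, and the mean ratios and the differences between sorted populations are also given without it. Among the cancer cell arrays, that of CMT-U309 with sorted cells in Cy5 also stood apart. It had outlier marks on 9870 of 43803 spots, against 6 to 1438 on the other arrays, and the highest share of spots above background (96.3%).

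All 4 probes were higher in the cancer cells after co-culture. FCGR1A, the receptor, had log2 ratios (sorted from co-culture over grown alone) of 5.60 in CMT-U27, 4.30 in CMT-U309, 5.24 in P114, 5.54 in CMT-W1 and 6.68 in CMT-W2, as means of both dye orientations. CMT-W2 was the highest (103-fold) and CMT-U309 the lowest (19.7-fold), and the 2 arrays of a pair differed by no more than 0.40 on the log2 scale. The mean ratio was 5.47 ± 0.85 (SD, n = 5), a 44.4-fold higher level (adjusted p = 0.000564, limma with Benjamini-Hochberg adjustment over 23115 genes). In mono-cultured cancer cells, the FCGR1A spot was well above background on 7 of 10 arrays. It was not well above background on either array of CMT-W1, where the level after co-culture was 16.6-fold above the dimmest spot well above background. This fold is not a lower limit, since another background correction (normexp and loess, below) gave a log2 ratio of 1.75 there.

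FCER1G, the gamma chain, gave log2 ratios on probe 1 of 3.94 in CMT-U27, 3.25 in P114, 1.66 in CMT-W1 and 2.43 in CMT-W2. The CMT-U309 value was left out, since the spot had an outlier mark on the array with the many marks described above. Its arrays gave 2.61 and, at the marked spot, -0.56. The mean over the 4 remaining lines was 2.82 ± 0.99 (SD, n = 4, adjusted p = 0.0133, limma), a 7.07-fold higher level. Probe 2 had a value in all lines, with log2 ratios of 2.77 in CMT-U27, 1.51 in CMT-U309, 3.12 in P114, 1.92 in CMT-W1 and 2.42 in CMT-W2. Its mean was 2.35 ± 0.65 (SD, n = 5, adjusted p = 0.00577, limma with every probe on its own). The arrays of a pair differed on probe 2 by up to 1.85 on the log2 scale. They gave 2.20 and 4.05 in P114, and 2.10 and 0.91 in CMT-U309, the latter on the array with the many marks. Each probe was well above background on 5 of the 10 cancer mono-culture channels and on neither array of P114 and CMT-W1. In mono-culture too few lines had both arrays above background to meet the filter (3 or more, below). Both probes thus passed it only through the sorted cells. The means of FCER1G in the cancer cells are therefore a description, and their tests carry no weight. The level of probe 1 in co-cultured cells was set against the higher of the dimmest spot above background and the spot's own signal. It was 5.68-fold higher in P114 and 3.17-fold higher in CMT-W1. In CMT-W1 the spot's own signal set this value, and its arrays gave log2 ratios of 2.40 and 0.93. With normexp and loess (below) the log2 ratios were 0.45 in P114 and 0.25 in CMT-W1, so these folds are not lower limits.

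TYROBP, the DAP12 adaptor, was well above background in every channel of every array, the mono-cultured cancer cells included. Its log2 ratios in the cancer cells were 2.78 in CMT-U27, 1.43 in CMT-U309, 2.25 in P114, 2.88 in CMT-W1 and 3.38 in CMT-W2. The order of the extremes was that of FCGR1A, with CMT-W2 the highest (10.4-fold) and CMT-U309 the lowest (2.69-fold). The mean was 2.54 ± 0.74 (SD, n = 5, adjusted p = 0.00599, limma), a 5.83-fold higher level.

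Across all genes tested in the cancer cells, 14.5% passed the threshold (adjusted p under 0.05) in either direction and 7.07% passed it as higher, beside 3 of 3 genes here. For FCER1G this call has the limit of the filter given above. By a stricter criterion, higher with at least a 3-fold change on all 10 arrays, the share over all genes was 0.761%. FCGR1A met it on 10 of 10 arrays, TYROBP on 8, and FCER1G on 8 (probe 1) and 9 (probe 2). The 4 tested macrophage markers were also higher, with a median log2 ratio of 4.64 over CD163, ADGRE1, C5AR1 and CD86, against -0.02 over all genes tested. CD163, ADGRE1 and C5AR1 were each well above background on 4 of the 10 cancer mono-culture channels. They thus passed the filter only through the sorted cells, so this median is a description. The part of the macrophage markers in the result was not tested, and in such bulk samples a few cells of another type and a low level of RNA in every cell cannot be told apart.

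After normexp background correction and loess, which add an offset to dim signals, the mean in cancer cells was 3.74 for FCGR1A (adjusted p = 0.0481) and 2.18 for TYROBP (adjusted p = 0.0481, limma), while FCER1G had 1.05 (adjusted p = 0.162) and no longer passed the threshold. FCER1G was also past it no longer without P114 (2.68, adjusted p = 0.0514), and by the methods' t-test, an unpaired comparison of levels that called 9 genes in all after Benjamini-Hochberg adjustment, the adjusted p was 0.123 for FCGR1A, 0.398 for FCER1G and 0.513 for TYROBP. Without CMT-U27 the means were 5.44, 2.45 and 2.49 (adjusted p = 0.00454, 0.0367 and 0.0221, limma). Without CMT-U309 FCGR1A had 5.77 (adjusted p = 0.000771) and TYROBP 2.82 (adjusted p = 0.00436, limma).

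**Figure D1:**
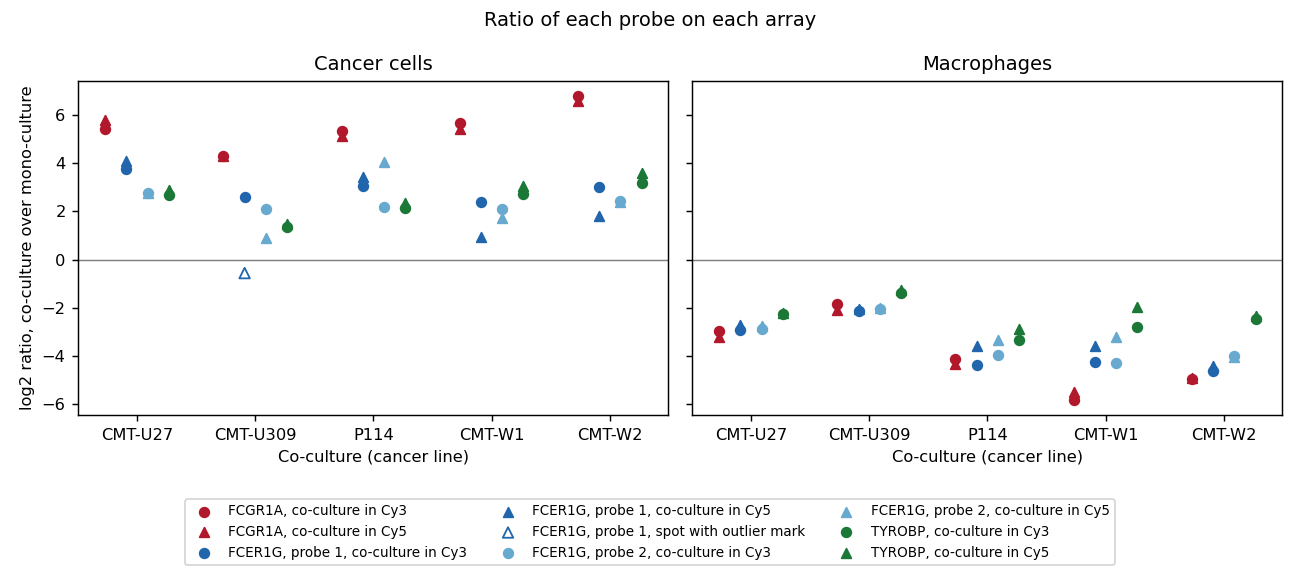
Log2 ratio of sorted over mono-cultured cells (vertical axis) of each probe on each of the 20 arrays, by co-culture (horizontal axis) and population (panels), where circles and triangles are the 2 dye orientations and the open triangle is the spot with an outlier mark. All values but that spot (-0.56) lie above 0 in the cancer cells, and all values lie below 0 in the macrophages.

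All 4 probes were lower in the macrophages after co-culture. FCGR1A had log2 ratios of -3.09 with CMT-U27, -1.97 with CMT-U309, -4.22 with P114, -5.65 with CMT-W1 and -4.93 with CMT-W2. The decrease was smallest with CMT-U309 (3.92-fold) and largest with CMT-W1 (50.1-fold). The mean was -3.97 ± 1.46 (SD, n = 5, adjusted p = 0.000652, limma over 24233 genes), a 15.7-fold lower level.

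For FCER1G probe 1 the log2 ratios were -2.82 with CMT-U27, -2.08 with CMT-U309, -3.97 with P114, -3.91 with CMT-W1 and -4.52 with CMT-W2. The mean was -3.46 ± 0.99 (SD, n = 5, adjusted p = 0.000308, limma), an 11.01-fold lower level. Probe 2 gave -2.81, -2.02, -3.65, -3.76 and -4.02 in the same order of co-cultures, with a mean of -3.25 ± 0.82 (SD, n = 5, adjusted p = 0.000246, limma). Both probes had the smallest decrease with CMT-U309 and the largest with CMT-W2.

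TYROBP had log2 ratios of -2.23 with CMT-U27, -1.33 with CMT-U309, -3.10 with P114, -2.37 with CMT-W1 and -2.40 with CMT-W2. The mean was -2.28 ± 0.63 (SD, n = 5, adjusted p = 0.000602, limma), a 4.87-fold lower level, with the largest decrease in P114 and the smallest with CMT-U309. TYROBP thus had its smallest decrease in the same co-culture as FCGR1A and FCER1G. Without CMT-U27 the means of FCGR1A, FCER1G and TYROBP in the macrophages were -4.19, -3.62 and -2.30, all past the threshold.

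Among all genes tested in the macrophages, 50.3% passed the threshold in either direction and 27.9% passed it as lower, so that the 3 calls stand in a population where such calls were common. Lower by at least 3-fold on all 10 arrays were 1.92% of genes, and FCGR1A and both FCER1G probes met this on 10 of 10 arrays, TYROBP on 8. All 5 macrophage markers also fell (median log2 ratio -4.93, against -0.16 over all genes tested). Whether they and the 3 genes share a source of the decrease was not tested.

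The changes of the 2 populations were opposite for each gene. The difference of the log2 ratios, macrophages minus cancer cells, was -9.45 ± 0.66 (SE) for FCGR1A (adjusted p = 6.53e-06, limma), -6.28 ± 0.59 for FCER1G (adjusted p = 3.96e-05) and -4.83 ± 0.42 for TYROBP (adjusted p = 2.08e-05). This difference passed the threshold for 31.7% of the 22447 genes tested in both populations, and for 12.8% it did so with a higher level in cancer cells and a lower one in macrophages. For FCER1G its test has the limit of the filter in the cancer cells given above. On the slide that held both populations, the macrophages of the CMT-U27 co-culture minus the CMT-W1 cancer cells gave -8.63 for FCGR1A, -4.49 for FCER1G and -5.11 for TYROBP.

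Whether receptor and adaptors moved together was read from the difference of their log2 ratios in each co-culture. In the cancer cells FCGR1A exceeded TYROBP by 2.83 in CMT-U27, 2.87 in CMT-U309, 2.99 in P114, 2.66 in CMT-W1 and 3.30 in CMT-W2. The mean excess was 2.93 ± 0.24 (SD, n = 5), so that it varied less from line to line than either gene's own ratio (SD 0.85 and 0.74). The exact two-sided sign-flip test gave p = 0.0625, the smallest that 5 co-cultures allow (0.125 after adjustment over 6 comparisons). With normexp and loess the excess was 1.56 ± 1.04 (SD, n = 5) and ranged from -0.05 in CMT-W1 to 2.54 in CMT-U309, so its evenness over lines was not kept under that processing. In CMT-W1 the FCGR1A spot of the mono-culture was not well above background, so that the value of 2.66 has no fixed size.

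The distance of FCGR1A from FCER1G, the chain that CD64 binds, depended on the probe and the processing. In the cancer cells FCGR1A exceeded FCER1G probe 1 by 1.66 in CMT-U27, 2.00 in P114, 3.88 in CMT-W1 and 4.25 in CMT-W2, with a mean of 2.95 ± 1.31 (SD, n = 4, exact sign-flip p = 0.125, the smallest that 4 values allow). On probe 2 the excess was 3.13 ± 0.83 (SD, n = 5), and with normexp and loess it was 2.65 ± 0.83 on probe 1 (SD, n = 4), where its SD was smaller than that of FCGR1A minus TYROBP. FCER1G minus TYROBP was 1.17 in CMT-U27 and 0.99 in P114, but -1.22 in CMT-W1 and -0.94 in CMT-W2. The mean of this difference was -0.00036 ± 1.25 (SD, n = 4, exact sign-flip p = 1). In P114 and CMT-W1 the mono-culture spot of FCER1G was not well above background, so these 2 values have no fixed size and that of CMT-W1 no fixed sign. With normexp and loess FCER1G was below TYROBP in all 4 lines (-1.33 ± 0.76, SD, n = 4; exact sign-flip p = 0.125). Probe 2 was below TYROBP by 0.20 ± 0.78 (SD, n = 5, exact sign-flip p = 0.4375).

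In the macrophages FCGR1A fell by more than TYROBP in each co-culture. The difference was -0.86 with CMT-U27, -0.64 with CMT-U309, -1.12 with P114, -3.28 with CMT-W1 and -2.54 with CMT-W2. Its mean was -1.69 ± 1.16 (SD, n = 5, exact sign-flip p = 0.0625, the smallest possible), and it was wider with CMT-W1 and CMT-W2 than with the other lines. FCER1G also fell by more than TYROBP in all 5 co-cultures (-1.18 ± 0.64, SD, n = 5; exact sign-flip p = 0.0625). FCGR1A and FCER1G differed by -0.51 ± 0.71 (SD, n = 5, exact sign-flip p = 0.125), with FCGR1A lower in 4 of 5. With normexp and loess FCER1G minus TYROBP was smaller (-0.30 ± 0.52, SD, n = 5) and FCGR1A minus FCER1G larger (-1.25 ± 0.98, SD, n = 5). The adjusted p was 0.125 to 1 over the 6 comparisons.

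**Figure D2:**
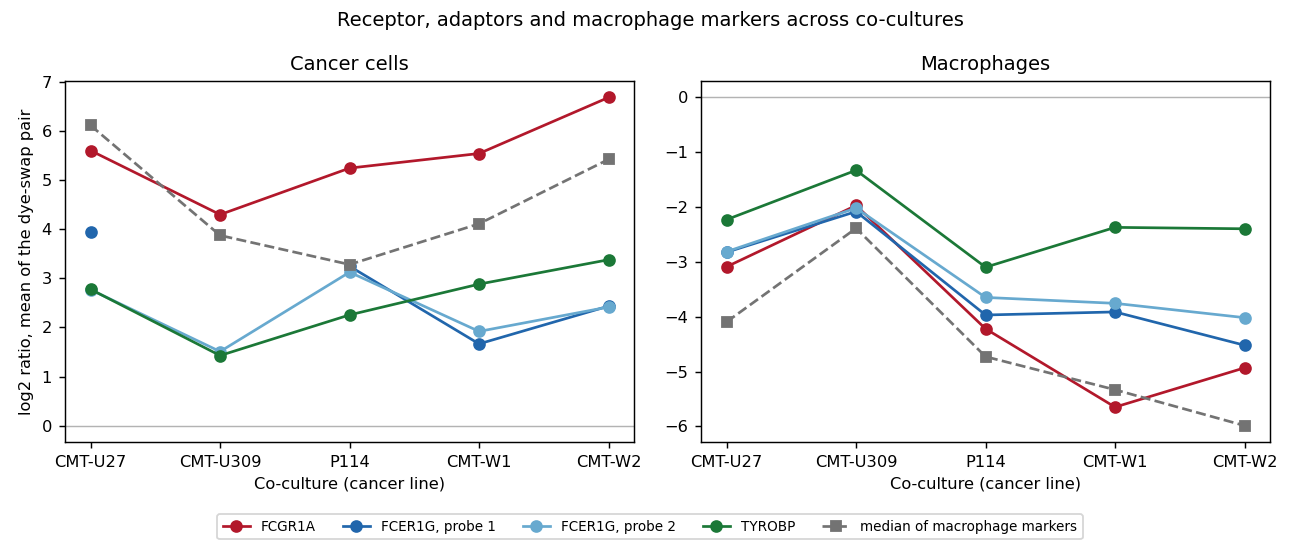
Log2 ratio of each probe as the mean of the dye-swap pair (vertical axis) by co-culture (horizontal axis), with the median of the measured macrophage markers dashed. Lines join values of 1 probe and carry no order of the co-cultures. In the cancer cells FCGR1A runs 2.66 to 3.30 above TYROBP, while in the macrophages the distance widens with CMT-W1 and CMT-W2.

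The levels in the 4 cultures, as log2 of the processed signal after Aquantile scaling, placed the mono-cultured macrophages highest for every probe. FCGR1A had 17.13 ± 0.25 (SD, n = 5) there, with a range over the 5 measurements of 0.60. It had 13.15 ± 1.28 in the macrophages sorted from co-culture, 13.46 ± 1.66 in the sorted cancer cells and 7.99 ± 1.87 in the cancer cells grown alone. The macrophages had been selected on CD64, so the FCGR1A levels of macrophages and cancer cells are a description with no test. In mono-culture they differed by 9.14 on the log2 scale, with the smallest difference for CMT-U27 (6.75). The spot of mono-cultured CMT-W1 was not well above background and that of CMT-W2 was on 1 of 2 arrays, so the size of the mean difference is not fixed.

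FCER1G probe 1 had a log2 level of 12.80 ± 0.18 (SD, n = 5) in the mono-cultured macrophages, 9.33 ± 1.05 in the sorted macrophages, 9.82 ± 1.64 (n = 4) in the sorted cancer cells and 7.002 ± 1.41 (n = 4) in the mono-cultured cancer cells. TYROBP had 17.73 ± 0.18, 15.45 ± 0.59, 14.20 ± 1.91 and 11.66 ± 2.08 in the same order (SD, n = 5). Mono-cultured macrophages exceeded mono-cultured cancer cells by 5.79 for FCER1G (95% interval 4.51 to 7.07, adjusted p = 3.62e-05) and by 6.08 for TYROBP (4.27 to 7.88, adjusted p = 0.000204, limma), a comparison in which 34.6% of 23691 genes passed the threshold. The FCER1G spots of mono-cultured P114 and CMT-W1 were not well above background. The number of macrophage mono-cultures is not known, so the macrophage values may not be independent, and these p-values may be too small and the intervals too narrow.

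The neighbours in the middle of this order did not differ beyond their spread. Sorted macrophages minus sorted cancer cells was -0.49 for FCER1G (95% interval -2.26 to 1.28) and 1.25 for TYROBP (-0.50 to 2.998, adjusted p = 1 for both, limma), and FCGR1A had -0.31 with no test. Without CMT-U27 these differences were -0.006 for FCER1G, 1.98 for TYROBP and 0.10 for FCGR1A, and TYROBP had 0.68 without CMT-W1. The threshold was passed by 1 of 23736 genes, or 0.00421%, in this comparison, which was made between arrays and mostly between slides. The intervals include differences of over 2 on the log2 scale, so the test does not show that the levels were alike.

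The sorted and mono-cultured cancer cells of different lines overlapped for TYROBP (12.07 to 16.96 against 9.19 to 14.18) and did not overlap for FCGR1A. For FCER1G the probes differed. Probe 1, which has no value in CMT-U309, did not overlap (8.17 to 11.98 against 4.92 to 8.03). Probe 2 overlapped (7.999 to 11.68 against 4.87 to 8.92). The share of all genes without such overlap was not determined, so the lack of overlap is a description. TYROBP differed from line to line already in mono-culture. Its log2 level was 14.18 in mono-cultured CMT-U27, 13.43 in CMT-U309, 10.95 in CMT-W2, 10.54 in P114 and 9.19 in CMT-W1. The sorted cancer cells kept this order of lines, with 16.96, 14.86, 14.32, 12.79 and 12.07. FCGR1A had the same highest and lowest line, CMT-U27 and CMT-W1, in both cultures of the cancer cells (10.21 grown alone and 15.81 sorted for CMT-U27, 11.32 sorted for CMT-W1, whose mono-culture spot was not well above background).

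**Figure D3:**
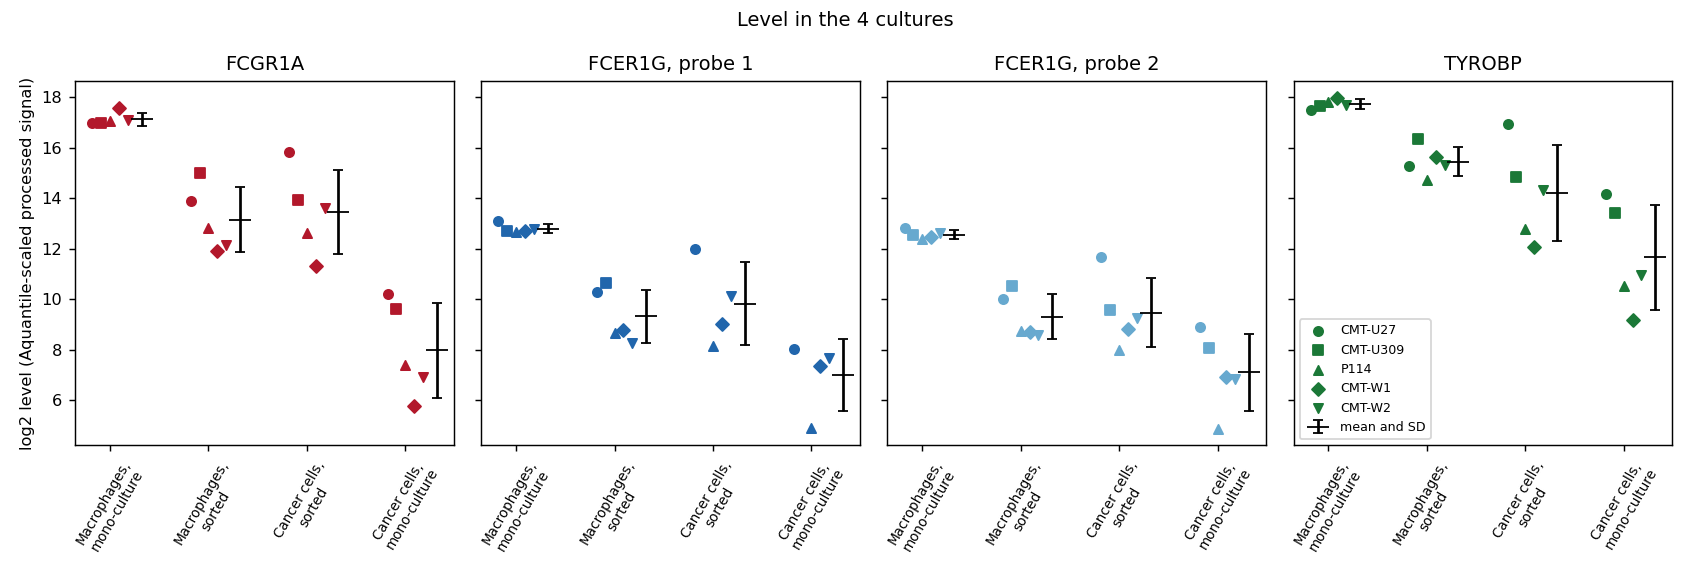
Log2 level of each probe (vertical axis, Aquantile-scaled processed signal) in the 4 cultures (horizontal axis), 1 symbol for each co-culture, with mean and SD in black. The mono-cultured macrophages lie within 0.60 of each other, the sorted populations overlap, and the mono-cultured cancer cells are lowest on average. Levels should not be compared between probes.

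Set against the mean of the mono-cultured macrophages, the co-cultured cells of each line held unequal shares. For FCGR1A the sorted cancer cells had 40.2% of that level in CMT-U27, 10.9% in CMT-U309, 4.46% in P114, 1.78% in CMT-W1 and 8.69% in CMT-W2. The sorted macrophages had 10.5%, 22.9%, 5.07%, 2.69% and 3.20%. The FCGR1A level was thus 3.84-fold higher in sorted cancer cells than in sorted macrophages of CMT-U27 and 2.71-fold higher in CMT-W2, and lower in the other co-cultures. These are the same 2 co-cultures in which the summed macrophage markers were higher in the cancer cells.

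TYROBP departed from this in CMT-W2. Its share in the sorted cancer cells was 58.4% in CMT-U27, 13.6% in CMT-U309, 3.26% in P114, 1.98% in CMT-W1 and 9.42% in CMT-W2. In the sorted macrophages it was 18.1%, 37.8%, 12.4%, 23.0% and 18.6%, so that only CMT-U27 had the higher level in the cancer cells (3.22-fold). With CMT-W1 the sorted macrophages kept 23.0% of the TYROBP level and 2.69% of that of FCGR1A.

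FCER1G is given by probe 2, which has a value in CMT-U309. It had 54.4%, 12.6%, 4.23%, 7.54% and 10.2% in the sorted cancer cells, in the same order of lines, and 17.1%, 24.2%, 7.05%, 6.87% and 6.38% in the sorted macrophages. It was higher in the sorted cancer cells of CMT-U27 (3.18-fold), CMT-W2 (1.60-fold) and CMT-W1 (1.10-fold). Probe 1 gave 3.26-fold, 3.58-fold and 1.18-fold for these lines. The mono-cultured cancer cells held 0.0383% to 0.8291% of the macrophage level for FCGR1A, 0.485% to 7.99% for FCER1G probe 2 and 0.268% to 8.53% for TYROBP, where the lowest values of FCGR1A and FCER1G come from spots not well above background.

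**Figure D4:**
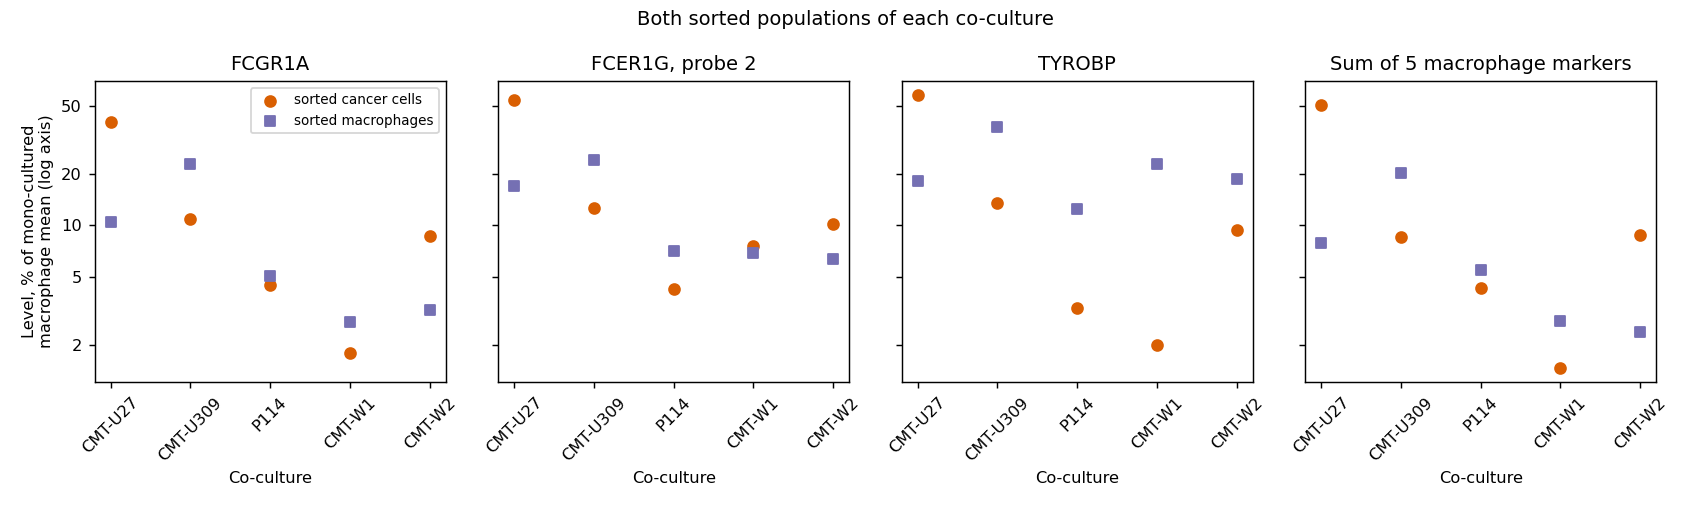
Level in the cells sorted from each co-culture, as a percentage of the mean of the mono-cultured macrophages (log axis), for 3 probes and for the sum of the 5 macrophage markers. Orange circles are cancer cells and purple squares macrophages. In CMT-U27 all 4 panels have the cancer cells above the macrophages, with 40.2% against 10.5% for FCGR1A.

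Of 78 further genes of Fc receptors and ITAM signalling, 4 had a probe with a symbol, and the others, SYK and the TREM receptors among them, were not analysed here. FCER1A, the IgE-binding chain of the high-affinity IgE receptor, which signals through FCER1G, fell in the macrophages (-2.76 ± 1.51, SD, n = 5; adjusted p = 0.00335, limma). Its log2 ratios were -3.26 with CMT-U27, -0.52 with CMT-U309, -4.13 with P114, -3.92 with CMT-W1 and -1.98 with CMT-W2, of which CMT-U309 alone was well above background in both cultures on both arrays. After co-culture its spot was not well above background on either array with CMT-U27, P114 and CMT-W1 and on 1 of 2 with CMT-W2, so the sizes of these decreases are not fixed. MS4A2, the beta chain of the same receptor, had log2 ratios in the macrophages of 3.93, 1.81 and 2.94 with CMT-U27, CMT-U309 and CMT-W2. It had no measured value with P114 and CMT-W1. Only in the sorted macrophages was the spot well above background on both arrays of these co-cultures. The filter thus kept MS4A2 only where it had a signal after co-culture. Its mean (2.89 ± 1.06, SD, n = 3) is therefore a description, and its test carries no weight. Its spot was well above background in 1 of the 10 macrophage mono-culture channels. Whether the chains of this receptor changed in opposite directions is therefore not settled, and neither was measured in enough cancer cell samples for a test.

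PRKCD, a protein kinase C acting downstream of such receptors, had 1.00 ± 0.67 (SD, n = 5, adjusted p = 0.0584, limma) in the cancer cells and 0.34 ± 0.66 in the macrophages. RAC1, a small GTPase of phagocytosis, had 0.24 ± 0.38 and -0.23 ± 0.69 (SD, n = 5, adjusted p = 0.475 and 0.54, limma). In all, 0 of 2 tested genes of this list passed the threshold in the cancer cells, and 1 rose and 1 fell of 4 in the macrophages. The gene that rose was MS4A2, with the limit of the filter given above. The shares over all genes were 14.5% and 50.3%, so the share in the macrophages was near that of all genes.

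The genes most like the 3 were sought among 476 other genes with a symbol that were measured in all 10 dye-swap pairs, by Pearson's r of the log2 ratios. The values of the 2 populations form separate clusters, so r is mostly set by their opposite signs, and it is given as a description. FCGR1A was most like TLR4, a receptor for bacterial lipopolysaccharide (r = 0.996 over 10 values; 0.94 after removal of each population's mean), CTSS, a lysosomal protease of antigen presentation (0.990 and 0.93), and PTGES, a prostaglandin E synthase (0.989 and 0.86). TLR4 averaged 3.55 in the cancer cells and -3.11 in the macrophages on the log2 scale, both past the threshold. PTGES rose in the cancer cells (3.74) and had -0.72 in the macrophages (adjusted p = 0.0928, limma).

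FCER1G probe 1 was most like C5AR1, the receptor of complement C5a (r = 0.982 over 9 values, 0.79 without the population means), CD1A6 (0.982 and 0.84) and CTSD, a lysosomal protease (0.976 and 0.87). Probe 2 gave TLR4, CTSS and C5AR1 (0.988, 0.979 and 0.978 over 10 values). TYROBP was most like CD86, a co-stimulatory ligand of antigen-presenting cells (0.984 and 0.74), GLUL, glutamine synthetase (0.983 and 0.72), and PTGES (0.979 and 0.71). GLUL fell in the macrophages (-2.86) and had 0.36 in the cancer cells (adjusted p = 0.341, limma). With the population means removed, r was 0.71 to 0.79 for the genes named beside FCER1G probe 2, 0.79 to 0.87 beside probe 1, 0.71 to 0.74 beside TYROBP and 0.86 to 0.94 beside FCGR1A.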

How the data were processed

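The authors deposited the scanner output of 20 two-colour Agilent canine arrays, written by Agilent Feature Extraction 10.7.3.1. Its deposited intensity columns hold spot signals on a linear scale, and the authors' log10 ratio is Cy5 over Cy3 after background correction and dye normalization. Other deposited columns carry marks for saturation, for outliers and for signal well above background. The deposited table of log10 values per array equals that ratio turned to co-culture over mono-culture. The number of columns without a sample was 0. Symbols were taken by accession from RefSeq genes of UU_Cfam_GSD_1.0, which is not the build of the array, and coordinates and sequences were not used here.

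Log2 ratios were averaged over each dye-swap pair, and pairs with an outlier spot were left out. A co-culture counted as measured where a spot was well above background in the same culture on both arrays, and a gene, by its brightest probe, was tested with 3 or more measured co-cultures. limma 3.58.1 (R 4.3.3) fitted a mean for each population and the difference of the means, with Benjamini-Hochberg adjustment over all genes tested, and was tested on simulated data. Levels were log2 of processed signals after Aquantile scaling, averaged over both dyes. Where a mono-culture spot was not well above background on either array, a fold was also taken against a floor. The floor was, on each array, the higher of the dimmest spot above background and the spot's own signal. Files were read with pandas 2.3.3 under Python 3.11.15, and matplotlib drew the figures.

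The populations of a co-culture share the line, so they are paired by design. As a check, their deviations from each group's mean were correlated over 14121 genes. Pearson's r was 0.45 (CMT-U309), 0.27 (CMT-W1), 0.19 (P114), 0.06 (CMT-W2) and 0.04 (CMT-U27), and cultures of unlike lines had -0.38 to 0.19. The genes, the pathway and marker lists (macrophage, epithelial, T and B lymphocyte, natural killer cell, granulocyte and mast cell), the tests and the alternatives were chosen with earlier results of these data known. Named were every probe of the 3 genes, the listed pathway genes with a probe, and the 3 most similar genes of each probe.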

Additional observations from a re-analysis of the deposited data

Results flagged for a closer look

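The change after co-culture differed between the populations for all 3 genes. The difference of the log2 ratios, macrophages minus cancer cells, was -9.45 for FCGR1A, -6.28 for FCER1G and -4.83 for TYROBP, each past the threshold of limma's test of the difference itself. For FCER1G this test has the limit of the filter in the cancer cells given above.

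Among 24 groups of levels and ratios of the 4 probes, 1 had a sample far from the others by Dixon's criterion, which chance gives for about 1 in 20 groups. The FCGR1A level of the macrophage mono-culture hybridised with the CMT-W1 co-culture was 17.56 on the log2 scale, against 16.96 to 17.09 in the macrophage mono-culture channels of the other 4 co-cultures. The same channel also had the highest TYROBP level among these channels (17.98). Without CMT-W1 the mean FCGR1A ratio in the macrophages was -3.55, and it kept its direction and its side of the threshold.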

How the results depend on the processing

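The FCGR1A levels and the differences within the shared slide had no test, so only their direction was compared. Of 183 values of the 3 genes under the alternatives, over 15 results, 177 kept their direction and, where tested, their side of the threshold. Another 5 kept the direction but lost the call, and 1 changed sign. The cause was not tested in any of these. The lost calls were all in the cancer cells: under the methods' t-test those of FCGR1A (log2 ratio 5.47), FCER1G (2.82) and TYROBP (2.54), and for FCER1G with normexp and loess (1.05) and without P114, where leaving out each line gave 2.45 to 3.21. The sign changed for FCGR1A in sorted macrophages minus sorted cancer cells, with -0.65 to 0.10 on leaving out each co-culture (0.10 without CMT-U27). FCER1G minus TYROBP in the cancer cells, with a mean near 0, ranged on leaving out each line from -0.39 to 0.41, and was above 0 without CMT-W1 or CMT-W2. With the co-culture as replicate block the paired differences of the change were -9.45 for FCGR1A, -6.63 for FCER1G and -4.83 for TYROBP, and no call of these genes changed.

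Counts over all genes moved more. In the cancer cells 3343 genes were called, against 976 with normexp and loess, 1803 with no filter on dim probes, 8153 with the slide as a random block, 9 with the methods' t-test (964 at its unadjusted threshold of 0.01) and 831 to 2509 with 1 line left out (lowest without P114; 1361 without CMT-U27). The difference of the change had 7119 genes, and 4511 to 6368 with 1 co-culture left out (lowest without CMT-U27 and P114). The mono-culture levels had 8194, and 5198 to 9781 (lowest without CMT-W2). The sorted levels had 1 gene called by limma (673 at an unadjusted p under 0.05), 2 with no filter, and 0 to 1 with 1 co-culture left out (0 without P114 or CMT-U27, with 741 and 679 at an unadjusted p under 0.05). In mono-cultured cancer cells the dim FCGR1A and FCER1G spots limit the ratios.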

Other observations

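The other marker lists moved less evenly than the macrophage markers. Of 9 granulocyte and mast cell markers 5 had a probe; S100A8, a calcium-binding protein abundant in neutrophils and monocytes, rose in the cancer cells (log2 ratio 3.46 ± 0.73, SD, n = 5, adjusted p = 0.00183, limma) and fell in the macrophages (-4.58 ± 2.14; adjusted p = 0.00146), as the 3 genes did. KIT, the stem cell factor receptor of mast cells, rose in the macrophages (1.90 ± 0.84, SD, n = 4, adjusted p = 0.00518, limma). FCER1A of the same list fell there (-2.76 ± 1.51, SD, n = 5, adjusted p = 0.00335, limma). MS4A2 was also higher, but passed the filter only through the sorted macrophages. In all, 1 of 3 tested markers of this list rose in the cancer cells, and 2 rose (KIT and MS4A2) and 2 fell of 5 in the macrophages. Over all genes 7.07% were called higher in the cancer cells, and 50.3% were called in the macrophages, with 27.9% of all genes lower, so that calls among any few macrophage genes were common. KIT, MS4A2 and FCER1A are all mast cell markers and did not move in 1 direction. MS4A2 was well above background in 1 of the 10 macrophage mono-culture channels, KIT in 6 and FCER1A in 10. Of the 10 cancer mono-culture channels, MS4A2 was well above background in 3, KIT in 8 and FCER1A in 1.

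Of 10 T and B lymphocyte markers 4 had a probe, and 1 of 3 was called higher in the cancer cells (CD28, 3.30 ± 1.15, SD, n = 3), against 7.07% of all genes. The CD28 spot was well above background in 1 of the 10 cancer mono-culture channels, so it passed the filter only through the sorted cells. Its mean is therefore a description, and its test carries no weight. In the macrophages MS4A1 rose and CD4 and CD8A fell, 3 of 4 against the 50.3% of all genes called there. Of 7 natural killer cell markers 2 had a probe; KLRD1 fell in the macrophages (-1.74 ± 1.83, SD, n = 5, adjusted p = 0.0439, limma), and PRF1 had -0.77 (adjusted p = 0.136). MUC1, the 1 epithelial marker with a probe, had 0.82 ± 1.80 in the macrophages (SD, n = 4, adjusted p = 0.314, limma). Its log2 ratio in the macrophages was highest with P114 (2.88) and CMT-U309 (1.70), the lines with the highest MUC1 level in mono-cultured cancer cells. In the cancer cells of these lines the MUC1 ratio was -1.01 (P114) and -1.52 (CMT-U309). Whether these values are linked was not tested.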
